A study of Mus musculus with 6 samples.

Results

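The epidermal growth factor (EGF) family genes examined here were 7 ligand genes (Tgfa, Areg, Ereg, Hbegf, Btc, Egf and Nrg1) and 3 ErbB receptor genes (Egfr, Erbb2 and Erbb3). Their members were all distinct open chromatin peaks that the deposited table annotates to 1 of these symbols, which gave 53 of 92864 peaks. Of the 53, 17 lay in the table's promoter class, 16 in introns, 17 in intergenic DNA, 2 in 3′ untranslated regions and 1 in an exon. Tgfa was put on the list because its promoter was open in microglia, so its values are a description with no test. ATAC-seq, which counts the fragments that a transposase cuts from accessible DNA, had been applied to 3 libraries of bone marrow derived macrophages (BMDM) and 3 of microglia (MG). All 6 were labelled as WT mice and were sorted from tumours that the isogenic mouse glioma line SB28 had formed in the brain. The gate was F4/80+ CD11b+ CD45+ LY6Clo/- LY6G- CD49dhigh for BMDM and F4/80+ CD11b+ CD45lo LY6Clo/- LY6G- CD49dlo/- for MG. Whether each library is from its own animal is not stated in the labels, so a p-value here covers only library-to-library spread, which can be technical.

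EGF family ligands are made as membrane-bound precursors, and metalloproteases of the ADAM class shed most of them from the cell. The ligand then binds ErbB receptors on the same or a neighbouring cell, the receptors pair, and Ras-MAP kinase and PI3 kinase signalling follows. Tgfa, Areg and Egf bind EGFR, Hbegf, Btc and Ereg bind EGFR and ErbB4, and neuregulins such as Nrg1 bind ErbB3 and ErbB4. EGFR signalling is best known in the brain for its amplification in human glioblastoma, and in mice microglial TGF-alpha is known to act on astrocytes.

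The start-site sequences of the members are shown for the promoters that held a match to a searched motif, so that the letters under the start-site peaks of Tgfa, Areg, Egfr and Erbb2 can be read beside their values. They run 5′ to 3′ along the gene's strand, and are RefSeq windows (GRCm38.p6) of 250 bases before to 50 bases after the annotated start. Capitals mark matches on either strand. The windows are chr6:86194972-86195271 (plus strand) for Tgfa, chr5:91139349-91139648 (plus) for Areg, chr11:16751953-16752252 (plus) for Egfr and chr11:98412234-98412533 (plus) for Erbb2.
Tgfa: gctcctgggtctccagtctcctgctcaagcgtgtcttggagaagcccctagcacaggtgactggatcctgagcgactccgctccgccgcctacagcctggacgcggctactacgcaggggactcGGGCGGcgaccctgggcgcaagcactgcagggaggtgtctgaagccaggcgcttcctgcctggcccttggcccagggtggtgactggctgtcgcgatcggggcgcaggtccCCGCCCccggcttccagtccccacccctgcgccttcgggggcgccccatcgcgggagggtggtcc
Areg: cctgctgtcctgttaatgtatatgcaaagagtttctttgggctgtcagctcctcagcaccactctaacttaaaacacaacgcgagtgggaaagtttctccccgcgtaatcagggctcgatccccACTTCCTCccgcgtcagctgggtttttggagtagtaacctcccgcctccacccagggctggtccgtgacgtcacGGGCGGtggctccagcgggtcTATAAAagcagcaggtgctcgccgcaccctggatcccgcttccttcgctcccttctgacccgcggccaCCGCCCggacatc
Egfr: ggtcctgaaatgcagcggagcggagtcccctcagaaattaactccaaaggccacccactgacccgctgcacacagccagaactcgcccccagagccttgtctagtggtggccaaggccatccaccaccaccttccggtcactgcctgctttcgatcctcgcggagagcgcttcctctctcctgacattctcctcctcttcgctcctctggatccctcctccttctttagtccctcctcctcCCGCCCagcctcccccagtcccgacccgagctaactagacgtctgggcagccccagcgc
Erbb2: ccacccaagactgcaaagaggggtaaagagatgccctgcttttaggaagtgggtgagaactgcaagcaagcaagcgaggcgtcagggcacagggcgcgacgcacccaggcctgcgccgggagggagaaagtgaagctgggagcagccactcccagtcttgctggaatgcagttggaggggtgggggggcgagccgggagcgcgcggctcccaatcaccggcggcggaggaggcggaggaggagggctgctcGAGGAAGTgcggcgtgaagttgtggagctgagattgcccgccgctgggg
Of the 10 genes, 6 had a window in the RefSeq table used (Ereg, Hbegf, Erbb3 and Nrg1 had none), and the Btc window and both Egf windows held no match. The searched motifs were GAGGAAGT (an ETS-type site bound by PU.1), TGANTCA (AP-1), a GAAA pair 2 bases apart (interferon regulatory factors), TGTGGT (RUNX), TTGCNNCAA (C/EBP), GGGCGG (a GC box) and TATAAA. The AP-1 motif stood in 7.81%, the interferon regulatory factor motif in 3.44%, the RUNX motif in 16.8% and the C/EBP motif in 2.08% of 32851 promoter windows, and none was found at these 4 genes. The GC box stood in 35.7% of all windows, and the Tgfa window held it at -126 and, on the other strand, at -15 from the start. The Egfr window held 1 GC box, on the other strand at -9. In the Areg window there were a TATAAA at -31, which 13.6% of all windows hold, a GC box at -52, another on the other strand at 38, and a GAGGAAGT on the other strand at -126. The Erbb2 window held GAGGAAGT at 2, a motif in 3.20% of all windows. None of these matches overlapped another, and a match describes the letters and is no evidence of binding. The GC content was 70.7% at Tgfa, 59.3% at Areg, 62.3% at Egfr and 66.0% at Erbb2, against a median of 52.7% over all windows. The windows not shown had 60.3% at Btc, and 49% and 52.3% at Egf.

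Depth differed between the libraries. Reads in peaks were 7167211, 19727511 and 4910448 in BMDM 1, 2 and 3, and 19244734, 23601865 and 12531808 in MG 1, 2 and 3, so 3 reads in a peak were worth between 1.64 and 5.95 normalized counts. Of the microglia markers (such as P2ry12), 2 of 10 tested genes passed as higher in MG and 0 the other way. Their summed normalized counts were 6227, 5680 and 4879 in BMDM, against 12370, 7557 and 8312 in MG. Of the monocyte and macrophage markers (such as Ccr2), 6 of 9 passed as higher in BMDM and 0 the other way. Of all tested genes, 2.14% passed as higher in BMDM and 3.51% as higher in MG. Of the oligodendrocyte lineage markers (such as Olig2 and Sox10), 5 of 9 were higher in MG, and their summed normalized counts were 5693, 5503 and 4638 in BMDM, against 6045, 14036 and 8918 in MG. MG 2 and MG 3 thus stood above the other libraries, and MG 1 lay near the BMDM libraries. The astrocyte marker sums had a like order, with 2503, 2347 and 2370 in BMDM, against 3111, 6204 and 4133 in MG, and 1 of 6 passed in each direction. Of 8 neuron markers, 2 were higher in MG, with sums of 1153, 1297 and 1424 in BMDM, against 2770, 3411 and 2690 in MG. Of 10 lymphocyte markers (T, NK and B cell), 3 were higher in BMDM, as was 1 of 7 neutrophil markers. In bulk libraries, more cells of a type and a more open site per cell cannot be told apart.

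Values below are normalized counts, which are reads in a peak divided by the authors' size factor of the library. Log2 differences are BMDM minus MG, computed on log2(normalized count + 1) and given relative to the median of all peaks (-0.14), all gene sums (-0.27) or all promoter sums (-0.31), and this scale understates the change of low peaks. Adjusted p-values are from limma over all peaks, genes or promoters tested, with Benjamini-Hochberg adjustment, and test the difference before that shift. A peak is named as called where its adjusted p was under 0.05.

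The Tgfa promoter was less open in BMDM than in MG. Its start-site peak (chr6:86194708-86195936) contains the annotated start of Tgfa, which encodes transforming growth factor alpha. The peak had 73.4, 59.6 and 67.0 normalized counts in BMDM 1, 2 and 3, against 390, 404 and 343 in MG 1, 2 and 3. Every MG library was above every BMDM library, and the libraries of each group lay close together. The means were 66.7 ± 6.92 in BMDM and 379 ± 32.0 in MG (SD over 3 libraries each), and the log2 difference relative to the median peak was -2.36 ± 0.28 (SE). Over all 87944 tested peaks, 297 (0.338%) had a lower log2 difference. This rank is no test, since Tgfa was listed for its open promoter in MG. In the authors' peak lists, this peak was called in BMDM 1 and BMDM 2 but not in BMDM 3, and in all 3 MG libraries.

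Tgfa had 16 peaks, of which 15 passed the filter on low values. In 5 of the 16 every MG library was above every BMDM library, in 1 every BMDM library was above every MG library, and in 10 the groups overlapped. The 16 means over the 6 libraries lay between 9.49 and 223 normalized counts. Over all tested peaks, 12.9% had MG above BMDM and 17.0% had BMDM above MG. A peak 746 bases before the start (chr6:86193879-86194477) had 23.8, 12.3 and 38.0 normalized counts in BMDM, against 125, 85.8 and 87.5 in MG. A peak in intron 2 of 5 (chr6:86258968-86259782) had 17.9, 29.8 and 30.8 in BMDM, against 147, 68.3 and 89.4 in MG. A peak in intron 1 of 5 (chr6:86219360-86219791) had 7.93, 9.07 and 18.1 in BMDM, against 44.4, 31.2 and 34.0 in MG. At these 3 sites, as at the start, the groups did not overlap and the log2 differences relative to the median peak were -1.94, -1.75 and -1.50.

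A different set of Tgfa peaks was high in MG 2 and MG 3 only. The peak 8057 bases before the start had 9.92, 13.6 and 34.4 normalized counts in BMDM, against 13.5, 278 and 136 in MG. The peak in intron 2 of 5 at chr6:86250524-86251280 had 13.9, 11.7 and 19.9 in BMDM, against 9.52, 254 and 109 in MG. Its neighbour at chr6:86248777-86249612 had 9.92, 8.42 and 32.6 in BMDM, against 7.14, 220 and 88.4 in MG. In each, MG 1 was at or under the level of the BMDM libraries while MG 2 and MG 3 were several times higher. In the oligodendrocyte lineage and astrocyte marker sums, MG 2 and MG 3 were also highest, and MG 1 was above every BMDM library. Medians over the markers, of log2 values less each gene's mean over the libraries, placed MG 1 lower. They were -0.75, -0.74 and -0.46 in BMDM and -0.49, 1.69 and 0.78 in MG for the oligodendrocyte lineage. For astrocytes they were -0.36, -0.16 and -0.12 in BMDM and -0.38, 0.78 and 0.20 in MG. In all, 5 of the 16 Tgfa peaks had MG 2 and MG 3 above every BMDM library without MG 1, and the part of other cell types in this was not tested. The start-site peak did not share that order, since MG 1 had 390 normalized counts there.

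The intergenic peak 45966 bases before the start (chr6:86148562-86149257) ran the other way. It had 13.9, 58.3 and 50.7 normalized counts in BMDM, against 6.35, 6.56 and 7.77 in MG. The groups did not overlap, and the log2 difference relative to the median peak was 2.32 ± 0.61. Summed over its peaks within 100 kb of the start, Tgfa had 248, 287 and 493 normalized counts in BMDM, against 931, 1670 and 1124 in MG. All MG sums were above all BMDM sums, with a log2 difference of -1.61 ± 0.32 relative to the median gene. Over the 6 libraries, the promoter sums most like that of Tgfa among 13341 promoters with a mean of at least 50 included those of Dact1 (r = 0.998), Csmd3 (0.997), Zfp105 (0.995) and Lama5 (0.994), by Pearson's r of log2 values. They were picked as the highest of 13341 values over only 6 libraries, so r near 1 is no test, and shared regulation was not tested.

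**Figure D1:**
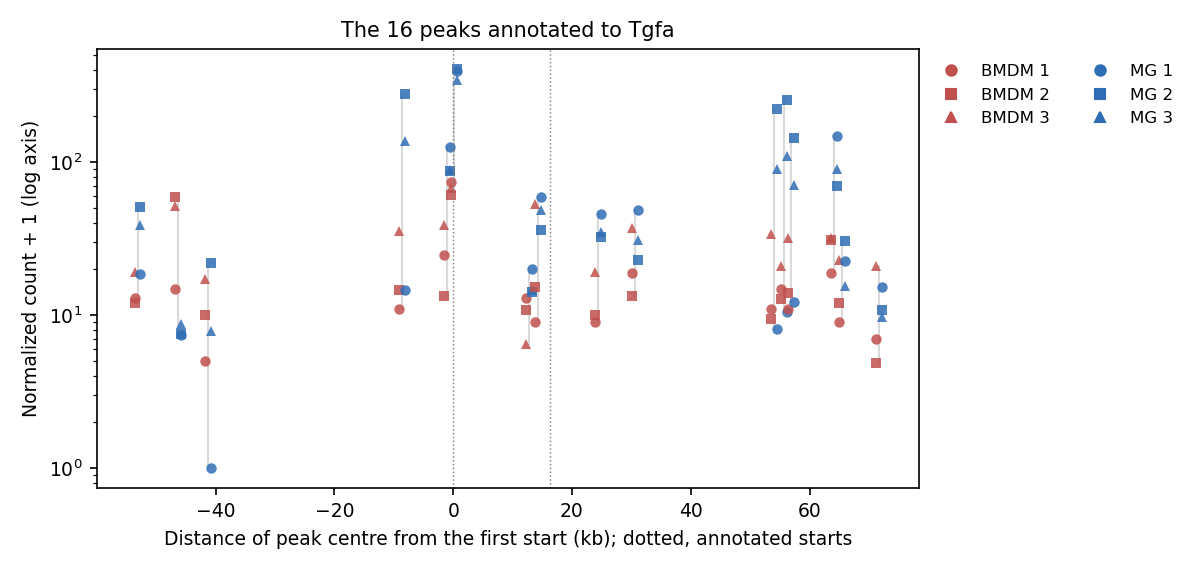
Normalized count + 1 (log axis) of the 16 Tgfa peaks by distance from the first annotated start (kb), with 1 point per library and BMDM drawn left of MG. The start-site peak has 59.6 to 73.4 normalized counts in BMDM and 343 to 404 in MG, while several distal peaks are high in MG 2 and MG 3 only.

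The other 9 genes had 37 peaks, of which 34 passed the filter, and Nrg1 accounted for each of the limma calls among them. By limma, 5 of the 34 passed as higher in BMDM and 0 as higher in MG, against 5.33% and 1.54% of all tested peaks. At an unadjusted p under 0.05 the counts were 9 with BMDM higher and 5 with MG higher, against 15.3% and 9.58% of all tested peaks, and with limma-voom 0 peaks were called in either direction. The authors' deposited table called 6 of the 37 higher in BMDM and 3 the other way, against 9.06% and 5.38% of all its peaks. In 10 of the 37 every BMDM library was above every MG library, in 4 every MG library was above every BMDM library, and in 23 the groups overlapped. Over all tested peaks, 17.0% had BMDM above MG and 12.9% had MG above BMDM, and Nrg1 held 6 of the 10.

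Nrg1, which encodes neuregulin-1, a ligand of ErbB3 and ErbB4, had peaks that were more open in BMDM. In 6 of its 7 peaks every BMDM library was above every MG library, and 5 of these were called. The 6 lay between bases 31859245 and 32009795 of chromosome 8, in a gene that spans bases 31807452 to 32891609, and the 7th lay further towards its 5′ end. The most different was a peak in intron 5 of 12 (chr8:31859245-31859722), with 61.5, 69.9 and 61.6 normalized counts in BMDM, against 4.76, 9.29 and 4.86 in MG. All BMDM libraries were many times above all MG libraries there, and the log2 difference relative to the median peak was 3.35 ± 0.44 (adjusted p = 0.0260). A peak in intron 1 of 12 (chr8:31980485-31981181) had 101, 102 and 61.6 in BMDM, against 3.97, 19.1 and 15.5 in MG, a log2 difference of 3.02 ± 0.54 (adjusted p = 0.0266). A promoter-class peak at an annotated start within the gene (chr8:31918532-31918929) had 65.5, 85.5 and 70.7 in BMDM, against 12.7, 16.4 and 21.4 in MG. Again no MG library reached a BMDM library, and the log2 difference was 2.23 ± 0.36 (adjusted p = 0.0260).

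Another 2 called Nrg1 peaks were in the promoter class. The peak at chr8:31949882-31950267 had 33.7, 38.2 and 36.2 normalized counts in BMDM, against 2.38, 6.01 and 6.80 in MG (log2 difference 2.83 ± 0.56, adjusted p = 0.0296). The peak at chr8:32009198-32009795 had 35.7, 69.3 and 39.9 in BMDM, against 8.73, 10.4 and 7.77 in MG (log2 difference 2.39 ± 0.45, adjusted p = 0.0281). All BMDM libraries were above all MG libraries at both, and the MG 1 value at the first of them was 3 reads. The remaining promoter-class peak, 185 bases before another annotated start (chr8:32293099-32293640), had 0, 9.07 and 27.2 in BMDM, against 4.76, 71.6 and 30.1 in MG, and did not pass the test (adjusted p = 0.407). The 0 in BMDM 1 allows up to 5.95 normalized counts. The sixth peak with BMDM above MG, in intron 5 of 12 (chr8:31907710-31907946), had 17.9, 35.6 and 14.5 in BMDM, against 0.793, 9.29 and 4.86 in MG (adjusted p = 0.130). In the peak before the start the groups overlapped, with MG 1 again at the level of the BMDM libraries.

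Summed within 100 kb of its annotated starts, Nrg1 had 315, 410 and 312 normalized counts in BMDM, against 38.1, 142 and 91.4 in MG. The lowest BMDM sum was well above the highest MG sum, an order that 6.87% of all genes had, and the log2 difference relative to the median gene was 2.37 ± 0.40 (adjusted p = 0.00824). Of all tested genes, 2.14% passed as higher in BMDM and 3.51% as higher in MG, and Nrg1 was the 1 of the 9 genes called. Its promoter sum averaged 170.3 ± 33.7 in BMDM, against 66.3 ± 37.9 in MG, without overlap, as at 5.36% of all promoters (SD over 3 libraries; log2 difference 1.82 ± 0.38, adjusted p = 0.00150). For this p-value limma leaned mostly on the spread shared by all promoters. The groups overlapped at 7.40% of the promoters that it called more open in BMDM. Of the 5 called peaks, 2 passed without BMDM 3 and 0 with voom or without BMDM 1, BMDM 2 or MG 3, settings in which 0 of all 87944 peaks passed. The gene call ended without BMDM 2 (adjusted p = 0.102), where 0 of all 18246 genes passed, without BMDM 3 (0.0523) and when counts were scaled to library totals (0.0522), and the promoter call without BMDM 3 (0.120) and with library totals (0.0961). In each of these the direction stayed the same.

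**Figure D2:**
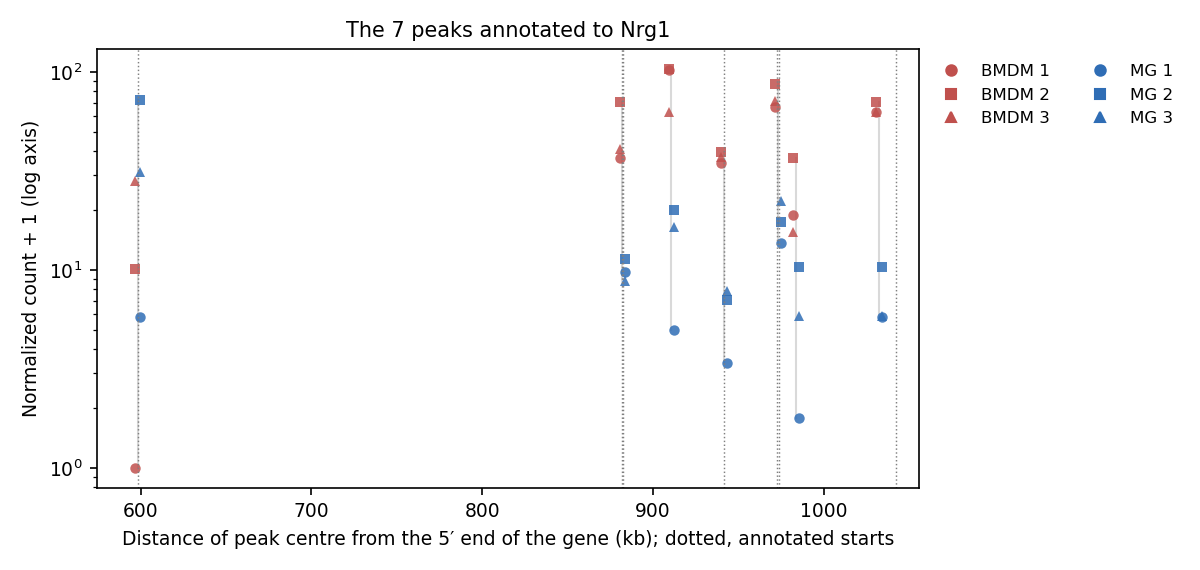
Normalized count + 1 (log axis) of the 7 Nrg1 peaks by distance from the 5′ end of the gene (kb), with 1 point per library and BMDM drawn left of MG. In 6 peaks all BMDM points lie above all MG points, and in the peak 185 bases before an annotated start they overlap.

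Hbegf, which encodes heparin-binding EGF-like growth factor, had 4 peaks. Its start-site peak (chr18:36515269-36516311) had 240, 227 and 168 normalized counts in BMDM, against 351, 454 and 397 in MG. All MG libraries were above all BMDM libraries, but the log2 difference of -0.79 ± 0.30 did not pass (adjusted p = 0.0855), whereas the authors' deposited table gave an adjusted p of 0.0403. The intergenic peak 16657 bases past the start (chr18:36497233-36498710) had 65.5, 31.7 and 52.5 in BMDM, against 37.3, 554 and 270 in MG. There MG 2 and MG 3 alone were high, as at the distal Tgfa peaks, and limma gave an adjusted p of 0.179. The peak 2301 bases past the start had 319, 388 and 145 in BMDM, against 188, 180 and 155 in MG, with overlapping groups (adjusted p = 0.387). The gene sum averaged 602 ± 169 in BMDM and 943 ± 356 in MG (SD over 3 libraries each; log2 difference -0.35 ± 0.33, adjusted p = 0.285).

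Egf, which encodes the family's founding ligand, had 12 peaks, all of which passed the filter and none of which was called, with means over the 6 libraries between 11.5 and 427 normalized counts. The peak with the highest counts (chr3:129724694-129725783), at a RefSeq start inside the gene, had 452, 414 and 250 normalized counts in BMDM, against 636, 398 and 413 in MG. The groups overlapped there (log2 difference -0.25 ± 0.35, adjusted p = 0.537). An intergenic peak (chr3:129639888-129640974) had 11.9, 16.2 and 38.0 in BMDM, against 19.0, 311 and 165 in MG. It too was high in MG 2 and MG 3 only (log2 difference -2.17 ± 0.87, adjusted p = 0.133), and the authors' deposited table gave an adjusted p of 0.00231. In the opposite direction, an intronic peak (chr3:129731832-129732090) had 25.8, 27.2 and 23.6 in BMDM, against 8.73, 8.75 and 6.80 in MG. Its groups did not overlap, and the difference of 1.68 ± 0.49 missed the threshold (adjusted p = 0.0838). The gene sums were 627, 671 and 614 in BMDM, against 919, 1166 and 890 in MG, without overlap (log2 difference -0.36 ± 0.27, adjusted p = 0.182). MG stood above BMDM without overlap at 21.5% of all genes.

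Areg, which encodes amphiregulin, had 4 peaks, of which 2 passed the filter. Its start-site peak (chr5:91139182-91139992) had 57.5, 55.7 and 41.7 normalized counts in BMDM, against 59.5, 37.2 and 34.0 in MG. The groups overlapped, and the log2 difference was 0.40 ± 0.36 (adjusted p = 0.684). Ereg, which encodes epiregulin, had no promoter peak and 2 low peaks, of which 1 passed the filter. The peak nearest its start, in intron 1 of 4 (chr5:91086104-91086377), had 0, 1.94 and 10.9 in BMDM, against 2.38, 17.5 and 9.72 in MG, and was not tested. The groups overlapped, and the values of BMDM 1, BMDM 2 and MG 1 were at or under 3 reads. The tested peak (chr5:91101547-91102062) had 5.95, 7.12 and 16.3 in BMDM, against 0.793, 31.2 and 7.77 in MG, and its direction changed with the setting (adjusted p = 0.885). Btc, which encodes betacellulin, had 1 peak (chr5:91402322-91403181), at its start. It had 59.5, 62.2 and 65.2 in BMDM, against 87.3, 105 and 75.8 in MG. The groups did not overlap, though the log2 difference of -0.37 ± 0.30 did not pass (adjusted p = 0.337).

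Of the receptors, Egfr, which binds most of the ligands above, had all 3 of its peaks higher in every BMDM library than in every MG library, but none passed. That order held at 17.0% of all tested peaks. The peak with the highest counts, 113398 bases before the start (chr11:16637725-16638805), had 79.3, 107 and 54.3 normalized counts in BMDM, against 32.5, 35.0 and 27.2 in MG (log2 difference 1.41 ± 0.36, adjusted p = 0.0597). The peak 81321 bases before the start (chr11:16669644-16670882) had 67.4, 63.5 and 41.7 in BMDM, against 25.4, 30.6 and 28.2 in MG (log2 difference 1.12 ± 0.35, adjusted p = 0.113). The start-site peak (chr11:16752074-16752420) was low, with 9.92, 14.9 and 18.1 in BMDM, against 8.73, 7.65 and 9.72 in MG (adjusted p = 0.559). It was in none of the 6 peak lists. The authors' deposited table called the most distant of the 3 (adjusted p = 0.0298). The Egfr gene sum within 100 kb averaged 71.8 ± 10.4 in BMDM and 36.8 ± 2.30 in MG (SD over 3 libraries each; log2 difference 1.21 ± 0.40, adjusted p = 0.184).

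Erbb2 encodes the family receptor with no known ligand of its own, and Erbb3 a receptor with little kinase activity. The single Erbb2 peak (chr11:98411825-98413270) had 41.7, 73.2 and 70.7 normalized counts in BMDM, against 66.6, 222 and 129 in MG, with MG 1 within the BMDM range (log2 difference -0.90 ± 0.45, adjusted p = 0.187). The Erbb3 start-site peak (chr10:128589283-128590752) had 250, 267 and 167 in BMDM, against 282, 515 and 389 in MG. Here all MG libraries were above all BMDM libraries (log2 difference -0.64 ± 0.34, adjusted p = 0.190). A second promoter-class Erbb3 peak (chr10:128587787-128588636) had 29.8, 35.6 and 70.7 in BMDM, against 25.4, 245 and 162 in MG. MG 2 and MG 3 were highest, as in the oligodendrocyte lineage and astrocyte sums. MG 1 was lowest here. It was above every BMDM library in those sums, but within or just under the BMDM range in the marker medians above. The part of other cell types in these values was not tested. The Erbb3 promoter sum was 280, 303 and 237 in BMDM, against 307, 760 and 551 in MG, and it passed as the 1 member promoter called higher in MG (log2 difference -0.58 ± 0.32, adjusted p = 0.0462), where 9.16% of all promoters were called higher in MG and 2.75% higher in BMDM. Limma's promoter fit leaned mostly on the spread shared by all promoters, and the groups overlapped at 25.1% of promoters that it called more open in MG. Without MG 2 and MG 3 the Erbb3 call ended, with a log2 difference of -0.17 before the shift (adjusted p = 0.828). It also ended without any 1 library other than MG 1 (adjusted p between 0.115 and 0.408), and the gene sum did not pass (adjusted p = 0.138).

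**Figure D3:**
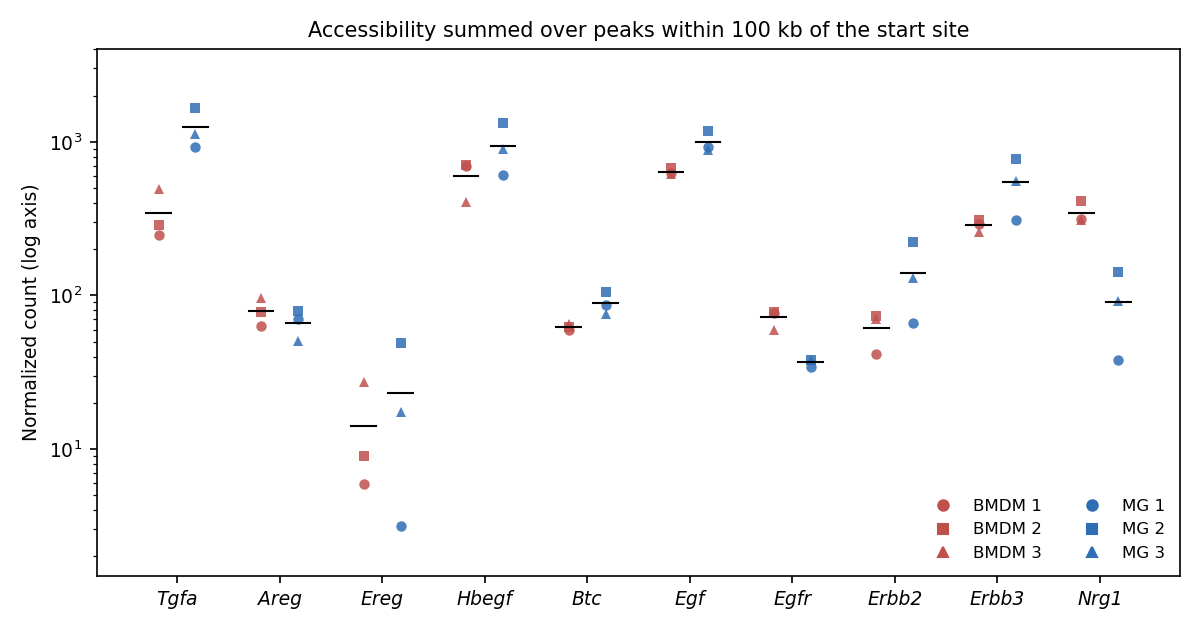
Normalized counts summed within 100 kb of the start sites for each of the 10 genes on a log axis, with 1 point per library, bars at the group means, and BMDM left of MG. Nrg1 has 312 to 410 in BMDM and 38.1 to 142 in MG, and Tgfa has 248 to 493 in BMDM and 931 to 1670 in MG.

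Across the family, a recurrent pattern was a peak with MG 2 and MG 3 above every BMDM library. It occurred at 23 of the 53 member peaks. In 14 of them (26.4% of the 53) MG 1 was not above every BMDM library, against 12.7% of all 92864 peaks, and in 9 (17.0%) it was, against 12.3% of all peaks. Without Tgfa, which was listed for its open promoter in MG, the shares of the 37 peaks were 24.3% and 10.8%, the second of them below that of all peaks. The 14 peaks were 5 at Tgfa, 4 at Egf, 2 at Hbegf and 1 each at Erbb2, Erbb3 and Nrg1. These are counts, with no test of the difference from all peaks.

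**Figure D4:**
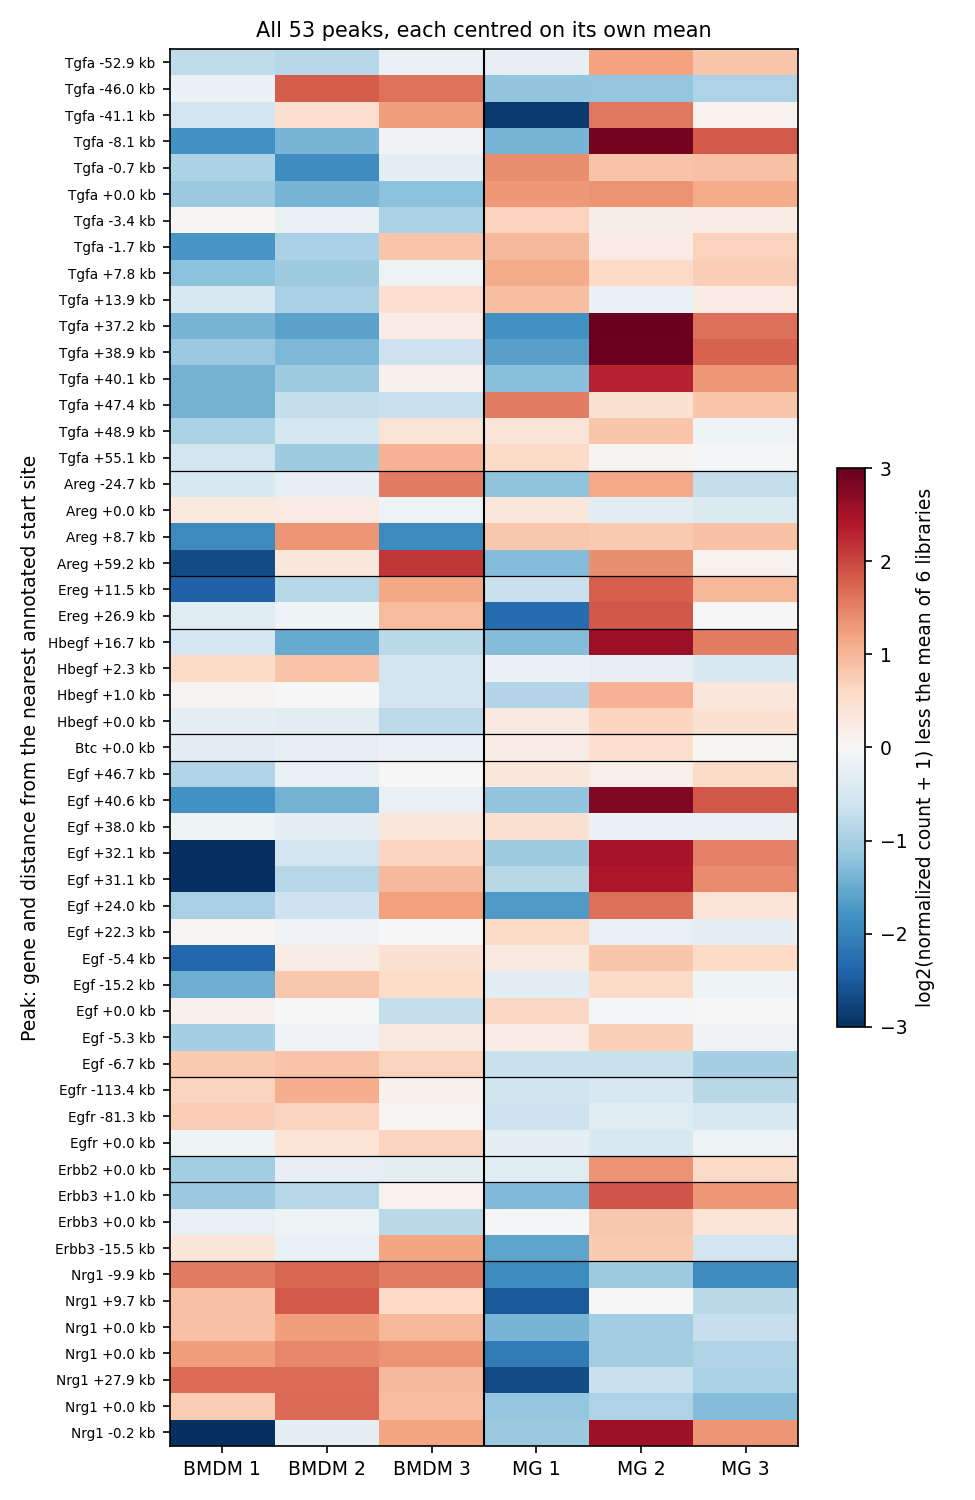
Log2(normalized count + 1) of each member peak in each library minus the mean of that peak, colour limited to ±3, with peaks grouped by gene and BMDM columns left of MG. Nrg1 peaks are high in the 3 BMDM columns, Tgfa start-site peaks in the 3 MG columns, and a further set in MG 2 and MG 3 only.

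The authors' peak lists covered the members unevenly, and the lists themselves held between 17741 and 70739 peaks. With an overlap of at least 1 base, 13, 20 and 2 of the 53 member peaks were listed in BMDM 1, 2 and 3, and 17, 42 and 27 in MG 1, 2 and 3. For Tgfa, 1, 2 and 0 of its 16 peaks were listed in BMDM, and 6, 14 and 10 in MG. For Nrg1, 3, 6 and 0 of its 7 peaks were listed in BMDM, and 0, 3 and 1 in MG. With an overlap of at least 50% of the peak, the counts over all 53 fell to 5, 15 and 0 in BMDM and 15, 38 and 17 in MG. BMDM 3, the library with the fewest reads in peaks, also had the shortest list.

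The authors' deposited table also holds a second, gene-level BMDM-against-MG comparison, whose assay is not given in the sources used here and whose direction is taken from the table's name. In it, Nrg1 was higher in BMDM (log2 fold change 5.35, SE 1.00, adjusted p 7.85e-06), as was Areg (2.58, SE 0.69, adjusted p 0.00534), and Hbegf was lower (-1.84, SE 0.45, adjusted p 0.00196). Tgfa had a log2 fold change of -2.82 (SE 1.11) and did not pass in the authors' deposited table (adjusted p 0.100), nor did Egfr at 4.98 (SE 2.08, adjusted p 0.130), Erbb3 at -1.41 (adjusted p 0.396) or Egf at 0.64 (adjusted p 0.693). Btc, Erbb2 and Ereg had no adjusted p there. Of the 7 members with an adjusted p, 2 were higher and 1 lower in BMDM, where 5.46% of all genes in the authors' deposited table were higher and 4.04% lower.

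**Figure D5:**
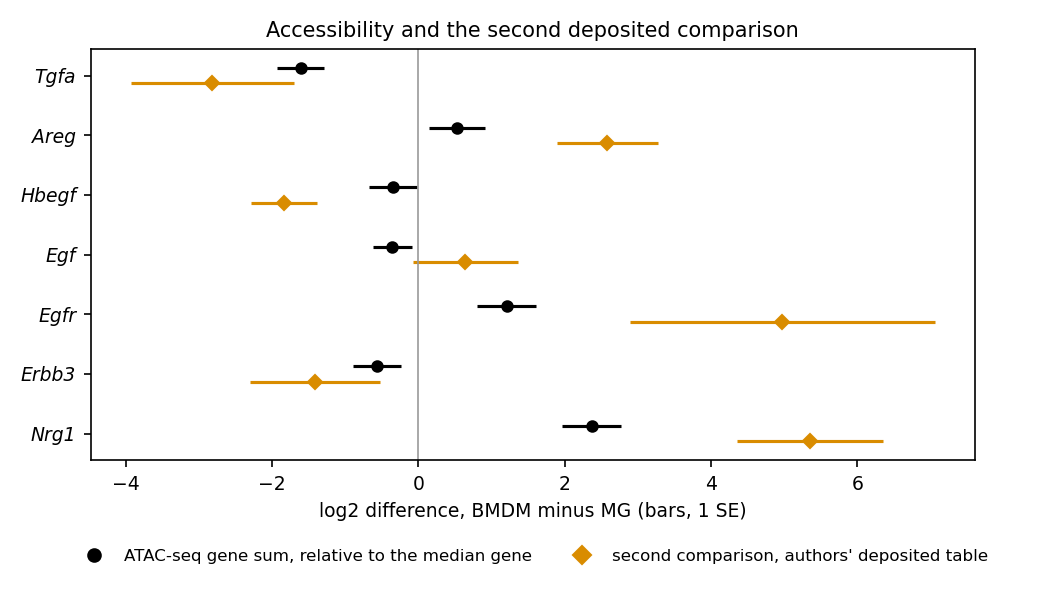
Log2 BMDM minus MG difference for the 7 genes with an adjusted p in the authors' second comparison (bars, 1 SE), with circles for the ATAC-seq gene sum relative to the median gene and diamonds for the gene-level comparison of the authors' deposited table. Nrg1 is at 2.37 and 5.35, and Tgfa at -1.61 and -2.82.

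Of 46 other genes of the pathway, 44 could be tested as gene sums, all but Erbb4 and Nrg3. By limma, 1 passed as higher in BMDM and 5 as higher in MG, against the 2.14% and 3.51% of all genes, and with voom 1 and 2. Their median log2 difference was 0.06 relative to the median gene, and at an unadjusted p under 0.05 the counts were also 1 and 5, against 6.24% and 15.6% of all genes. The 1 higher in BMDM was Nrg4, which encodes neuregulin-4, a ligand of ErbB4, with 815, 908 and 438 normalized counts in BMDM, against 239, 331 and 260.5 in MG (log2 difference 1.59 ± 0.31, adjusted p = 0.0224). Among the 12 genes listed here as negative regulators, 3 were called higher in MG. Lrig3, a transmembrane relative of the ErbB inhibitor Lrig1, averaged 192 ± 12.9 in BMDM and 507 ± 65.5 in MG (log2 difference -1.12 ± 0.27, adjusted p = 0.00920). Spry1 and Spry4, Sprouty inhibitors of Ras-MAP kinase signalling that the pathway itself induces, followed. Spry1 averaged 532 ± 80.3 in BMDM and 1125 ± 116 in MG (adjusted p = 0.0287), and Spry4 534 ± 97.9 in BMDM and 1053 ± 63.0 in MG (adjusted p = 0.0422).

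The other 2 pathway genes higher in MG were an adaptor and a shedding factor. Gab1, a docking protein that links receptors to PI3 kinase, averaged 912 ± 77.6 in BMDM and 2242 ± 466 in MG (log2 difference -1.01 ± 0.29, adjusted p = 0.0194). Rhbdf1, an inactive rhomboid protein that helps bring the sheddase ADAM17 to the cell surface, averaged 272 ± 39.0 in BMDM and 601 ± 198 in MG (log2 difference -0.83 ± 0.30, adjusted p = 0.0415). In all 6 called pathway genes the groups did not overlap, which adds little to the calls. Among all called genes, the groups overlapped at 0.256% of those higher in BMDM and 5.16% of those higher in MG. Adam17 itself had 1966, 1888 and 1002 in BMDM, against 2101, 1511 and 1516 in MG, and was not called (adjusted p = 0.857). Of the 8 PI3 kinase and phospholipase genes, 0 were called in either direction by limma. In the authors' deposited gene-level comparison, Spry1 was lower in BMDM (log2 fold change -3.75, adjusted p 0.0355), Plcg1 and Pik3r1 were also lower, and Map2k1 was higher. Without BMDM 1 or BMDM 2, 0 of the 44 genes were called in either direction, without MG 3 the counts were 0 and 1, and without MG 2 and MG 3 they were 0 and 1.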

How the data were processed

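The labels describe lysed, sorted cells treated with a Nextera Tn5 kit, followed by PCR amplification. The authors' tools, as the submitters' processing notes list them, were Bowtie2 2.4.1 and MACS2 2.1.1.20160309, DESeq2 1.36.0, ChIPseeker 1.32.1 and cutadapt 1.8.1, and the build was mm10. The sources used here do not give the settings, a read shift for the transposase or duplicate removal. Coordinates are the deposited ones on mm10, counted from 1. The authors deposited library columns as variance-stabilized log2 values, together with each peak's mean normalized signal, log2 fold change, p-value and adjusted p-value. The deposited peak lists give a fold enrichment, a score and a −log10 p and −log10 q per peak for each library, and these authors' values were used only to describe peaks within a list. The table holds another 8 columns of per-sample values that match no sample here and stayed unused.

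The table had 93084 lines, of which 155 repeated a peak and 65 peaks had no annotation, which left 92864. The inverse of the authors' log2 transformation gave normalized counts whose mean lay within 2.4e-06 of the deposited mean, and multiplied by the size factors at least 99.9989% of the values of every library came out whole within 0.02 read. The filter was a mean normalized count of at least 10, the pseudocount 1 and the adjusted p threshold 0.05. Limma 3.58.1 (R 4.3.3) with a trend was fitted to 87944 peaks, to 18246 gene sums (peaks no more than 100 kb away from a start) and to 15249 promoter sums, after the method had been tested on simulated data. No count test was run, since limma on the normalized values was the planned test. Counting limits of 3 reads cover counting error only, since PCR reads are not independent molecules.

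The 10 genes, the pathway list and the marker lists were chosen with earlier results of these data known. All 10 genes were named, with the peak nearest the start, the highest peak and up to 3 called peaks each, and other peaks given were chosen after their values were seen. Every called pathway gene was named, some genes that the rules select are not reported here, and Adam17 and the second comparison's genes were added after their values were seen. Alternatives were the deposited transformation, a pseudocount of 5, no filter, library totals, loess scaling, voom, the replicate number as a block, all annotated peaks and each library left out in turn. Leaving out MG 2 and MG 3 together and the authors' adjusted p-values were added after seeing the data.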

Additional observations from a re-analysis of the deposited data

How the results depend on the processing

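With 3 libraries a group and 4910448 to 23601865 reads in peaks, depth limits what can be said of low peaks, such as those of Ereg and the Egfr start. Of the 9 tested genes, 5 peaks passed as higher in BMDM and 0 as higher in MG. With voom 0 were called higher in BMDM, and when each library was left out the count ran from 0 to 6. Peaks called higher in MG numbered 3 by the authors' deposited table and 0 to 7 with a library left out. The 7 came without MG 1, where 21881 of all 87944 peaks were called in either direction, against 6039 with all libraries. The gene count higher in BMDM (1) was 0 with library totals and 0 to 1 with a library left out, and the count higher in MG (0) was 0 to 2. That 2 came without MG 1, where 2976 of all 18246 genes were called in either direction, against 1031 with all libraries. The promoter count higher in BMDM (1) was 0 with library totals and 0 to 1 with a library left out. The promoter count higher in MG (1) was 0 with the deposited transformation, library totals, loess, voom, and without MG 2 and MG 3, and 0 to 2 with a library left out. Here too the 2 came without MG 1, where 2349 of all 15249 promoters were called in either direction, against 1816 with all libraries. The pathway count higher in BMDM (1) was 2 with library totals, 3 with loess, 0 without MG 2 and MG 3, and 0 to 1 with a library left out. The pathway count higher in MG (5) was 3 with library totals, 3 with loess, 2 with voom, 1 without MG 2 and MG 3, and 0 to 6 with a library left out. Where a group is left with 1 library, that library is assumed to vary like the other group.

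Some small log2 differences, before the shift to the median, changed sign. The Ereg gene sum was 0.11 without BMDM 1, 0.51 without MG 2 and 1.59 without MG 2 and MG 3. The Areg promoter and its start-site peak were -0.22 without MG 2 and MG 3, the Hbegf promoter was 0.066 and the Egf promoter 0.028 with loess, and the tested Ereg peak was -0.073 with voom. With each library left out, that peak ran from -0.76 (without MG 1) to 1.323, being -0.085 without BMDM 3, and the Ereg gene sum ran from -1.27 to 0.51. The cause was not tested.

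Same-numbered libraries deviated together with correlations of 0.55, -0.16 and 0.45, and 3 of 6 libraries correlated best with their own number, so the numbers were not taken to pair the samples. With the replicate block, 4 peaks, 2 genes and 2 promoters were called higher in MG. Calls in either direction also rose over the whole data with the block. They went from 6039 to 14427 of 87944 peaks, from 1031 to 3245 of 18246 genes and from 1816 to 2583 of 15249 promoters. The block left the counts of peaks (6), genes (1) and promoters (1) higher in BMDM and of pathway genes (1 and 5) within 1.5 times those without it.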
